A study of Mus musculus with 21 samples.

Results

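Reln, Mmrn1, Ccl21a, Lyve1, Prox1, Pdpn, Flt4 and Vegfc are 8 genes used as markers, or known as regulators, of lymphatic vessels, and they were followed across age in the mouse uterus. They were chosen by name, with earlier results of these data known, so the count of members that differ is not independent of the choice. All 8 were among the 12791 genes listed in the deposited tables, each with at least 10 reads in every library. A gene below 10 reads in any library is not listed there, so the data say nothing about lymphatic genes that are silent at one age. RNA levels are in CPM, the reads of a gene per 1000000 reads of the listed genes.

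The uteri, taken whole, were those of wild type mice of the C57BL/6J strain at 5 weeks (5w, 7 libraries), 8 weeks (8w, 7 libraries) and old age (aged, 6 libraries). Per the labels, every mouse had been given pregnant mare serum gonadotropin (5 or 7.5 units), a hormone that drives ovarian follicle growth, 48 h before dissection. All values therefore describe gonadotropin-primed uteri, and no unprimed uterus was among the samples. Both doses are given for every sample, so whether the dose differed between the ages is not known here. The libraries fall into an earlier set (replicates 1 and 2 of each age, aged mice of 60 to 75 weeks, 12204573 to 14448283 reads) and a later set (replicates 3 to 7, aged mice of 79 weeks, 19100690 to 30689439 reads). Of 12791 genes, 7512 (58.7%) differed between the sets, and any difference between them in instrument, RNA kit and, for aged mice, age cannot be told apart. Columns were matched to samples by their headers. In 15 of 20 files the header names another sample than the one the file is attached to, and for 5w replicate 3 and 8w replicate 3 the file belongs to another age group. For aged replicate 2 and aged replicate 5 it belongs to the other set. Of 14 genes marking uterine tissue (such as Esr1, Pgr and Myh11) 13 were listed, and they summed to 4852 to 14968 CPM in aged libraries against 3500 to 12460 CPM in 8-week libraries.

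Lymphatic vessels return tissue fluid and immune cells to the blood. Their endothelial cells take their identity from the transcription factor PROX1, and they grow in response to the secreted protein VEGF-C acting on its receptor VEGFR3, the product of Flt4. In the uterus such vessels run through the muscle layers and beneath the outer lining. Several of these markers are also made by other cells: Lyve1 by some tissue macrophages, and Pdpn by fibroblast-like stroma and by the mesothelium, the lining of the abdominal cavity that covers the uterus. A whole-tissue RNA level cannot tell more cells of a type from more RNA in each cell.

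Upstream sequence is shown for Reln, Pdpn and Prox1. Reln and Pdpn had the smallest p-values of the members between aged and 8-week uteri, and Reln and Prox1 varied together most closely. Each run is the 250 bases before the RefSeq start site, 5′ to 3′ on the strand of the gene (GRCm38.p6). The minus-strand windows are chr5:22344706-22344955 for Reln, chr4:143299565-143299814 for Pdpn and chr1:190170828-190171077 for Prox1. RefSeq gives Prox1 another start, whose window (chr1:190169516-190169765, 56% G or C, 11 CpG pairs, no match) lies inside the gene and is not shown. Capitals mark matches to TTCCGG (bound by ETS factors) or AGGTCA (a nuclear receptor half-site). AACAAT (bound by SOX factors) was searched as well, on both strands, and the motifs do not overlap where found.
Reln: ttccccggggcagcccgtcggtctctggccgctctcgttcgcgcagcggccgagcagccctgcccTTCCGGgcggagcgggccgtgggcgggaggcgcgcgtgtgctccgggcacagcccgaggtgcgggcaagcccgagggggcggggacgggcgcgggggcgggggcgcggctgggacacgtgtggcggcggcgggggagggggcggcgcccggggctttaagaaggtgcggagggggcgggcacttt
Pdpn: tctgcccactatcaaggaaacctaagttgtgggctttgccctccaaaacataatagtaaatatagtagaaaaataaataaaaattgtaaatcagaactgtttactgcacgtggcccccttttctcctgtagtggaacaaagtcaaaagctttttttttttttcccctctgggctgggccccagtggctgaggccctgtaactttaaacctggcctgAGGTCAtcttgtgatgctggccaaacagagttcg
Prox1: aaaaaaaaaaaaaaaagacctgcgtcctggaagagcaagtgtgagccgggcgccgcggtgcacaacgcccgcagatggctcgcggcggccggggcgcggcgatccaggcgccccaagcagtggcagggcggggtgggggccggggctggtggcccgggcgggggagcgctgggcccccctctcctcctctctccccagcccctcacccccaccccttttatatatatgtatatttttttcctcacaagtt
Reln held 1 ETS match, Pdpn 1 half-site match, and Prox1 none. Of 32851 RefSeq promoter windows of the same length, 12.0% held the ETS letters, 14.0% the half-site letters and 9.42% the SOX letters on either strand, so a single match is common. Base composition differed: 80% of the Reln window was G or C, with 37 CpG pairs, against 43.2% and 2 CpG pairs in Pdpn, 64.8% and 20 in the Prox1 window shown, and a median of 52.4% G or C over all windows. RefSeq windows were found for 7 of the 8 members. Of the windows not shown, that of Mmrn1, which lies inside the gene, held 1 SOX match and the others none.

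Reln, Mmrn1 and Pdpn were the members most clearly higher in aged uteri. Reln codes for reelin, a large secreted glycoprotein known from neuronal migration and also made by lymphatic endothelium (chromosome 5, 21884454 to 22344702, minus strand, GRCm38, GENCODE release 21). Its level ran from 1.80 to 8.13 CPM at 5 weeks (median 3.73), from 3.14 to 8.44 CPM at 8 weeks (median 6.96) and from 9.61 to 69.5 CPM in aged uteri (median 23.1). With the sets pooled, all 6 aged libraries lay above all 14 younger ones. That pooled separation held for 75 of 12791 genes (0.586%). Within each set the aged libraries did not overlap the younger ones either. The log2 fold change of CPM + 1 was 1.91 ± 0.37 (SE) against 8 weeks, a 3.75-fold difference (adjusted p = 0.00207, limma with Benjamini-Hochberg adjustment over all 12791 genes, as for every adjusted p of an age difference), and 2.34 ± 0.37 against 5 weeks (adjusted p = 0.000273).

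Mmrn1 codes for multimerin 1, a platelet and endothelial matrix glycoprotein (chromosome 6, 60924976 to 60989378, plus strand). It ran from 18.1 to 39.0 CPM at 5 weeks (median 29.9), from 13.5 to 62.6 CPM at 8 weeks (median 31.2) and from 32.5 to 199 CPM in aged uteri (median 85.6). Here 4 of 6 aged libraries lay above all 14 younger ones. The log2 fold change was 1.49 ± 0.35 against 8 weeks (adjusted p = 0.00685) and 1.53 ± 0.35 against 5 weeks (adjusted p = 0.00424). Pdpn codes for podoplanin, a mucin-like membrane protein widely used to stain lymphatic endothelium (chromosome 4, 143267431 to 143299564, minus strand). Its levels were 21.3 to 35.1 CPM at 5 weeks (median 25.5), 13.4 to 46.5 CPM at 8 weeks (median 29.0) and 44.9 to 88.2 CPM in aged uteri (median 57.4). All aged libraries lay above the 5-week range, and a single 8-week library (replicate 6) reached into the aged range. Pdpn was 2.23-fold higher than at 8 weeks (log2 fold change 1.16 ± 0.23, adjusted p = 0.00202) and 2.10-fold higher than at 5 weeks (1.07 ± 0.23, adjusted p = 0.00255).

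**Figure D1:**
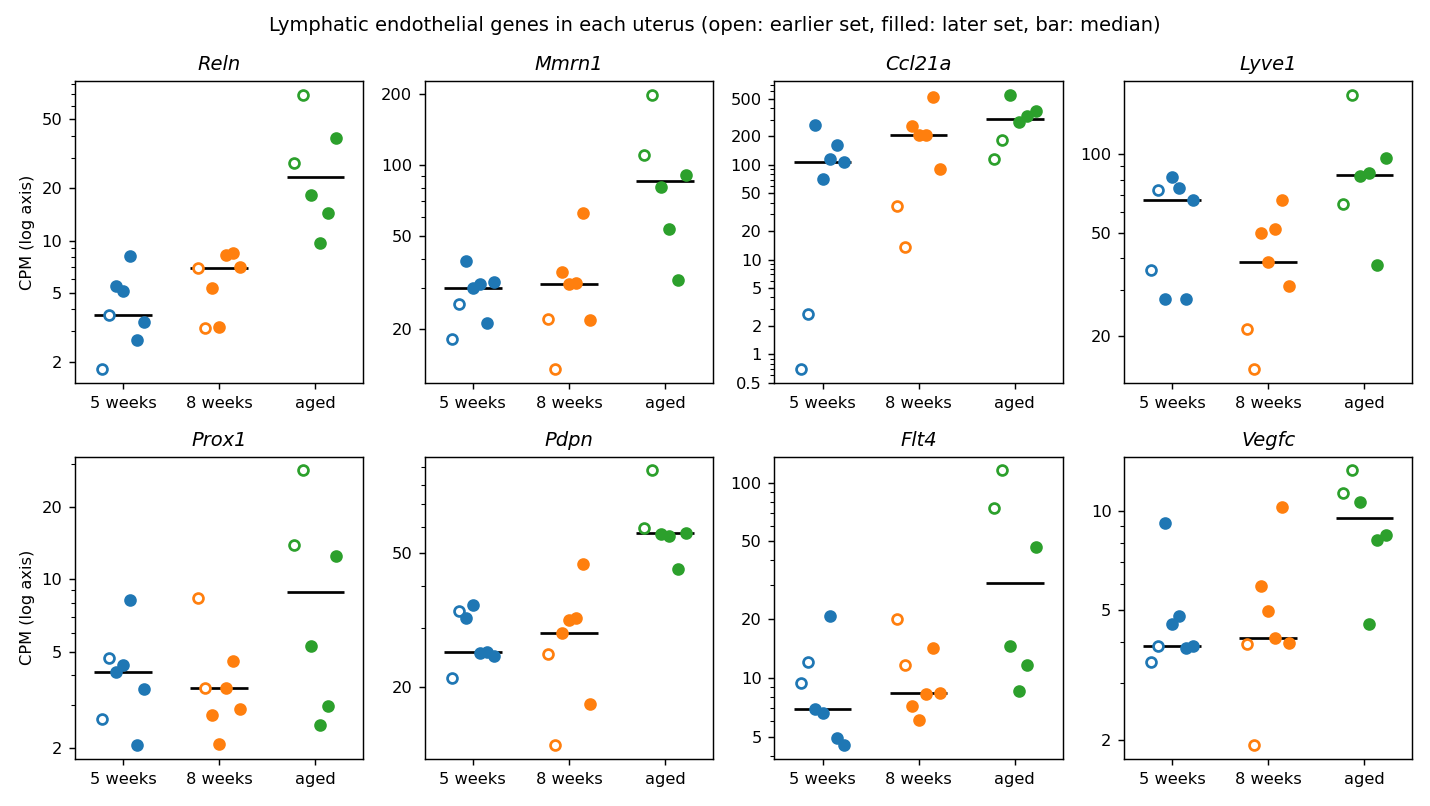
CPM of the 8 lymphatic endothelial genes in each library (log axes), by age, with open circles for the earlier and filled circles for the later set and a bar at the median. The 6 aged libraries lie above all 14 younger ones for Reln, while for Prox1 and Flt4 the aged libraries reach from the younger range to far above it.

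The ligand and its receptor were both higher in aged uteri. Vegfc (chromosome 8, 54077606 to 54187096, plus strand) is the main growth factor for lymphatic endothelium and is secreted by other cells. It ran from 3.46 to 9.21 CPM at 5 weeks (median 3.89), from 1.93 to 10.3 CPM at 8 weeks (median 4.10) and from 4.52 to 13.3 CPM in aged uteri (median 9.57). The ages overlapped, and 3 of 6 aged libraries exceeded all younger ones. The log2 fold change was 0.85 ± 0.27 in both comparisons (adjusted p = 0.0383 against 8 weeks and 0.0306 against 5 weeks). Flt4 (chromosome 11, 49609263 to 49652739, plus strand) ran from 4.54 to 20.7 CPM at 5 weeks (median 6.91), from 6.10 to 20.2 CPM at 8 weeks (median 8.38) and from 8.62 to 115 CPM in aged uteri (median 30.7). Its aged libraries parted widely: 3 of 6 exceeded every younger library, and the lowest 3 lay within the younger range. The log2 fold change of Flt4 was 1.40 ± 0.40 against 8 weeks (adjusted p = 0.0227) and 1.66 ± 0.40 against 5 weeks (adjusted p = 0.00669).

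Prox1, the transcription factor that sets and keeps lymphatic identity (chromosome 1, 190118035 to 190170714, minus strand), did not pass in either comparison. It ran from 2.05 to 8.21 CPM at 5 weeks (median 4.14), from 2.08 to 8.36 CPM at 8 weeks (median 3.53) and from 2.49 to 28.2 CPM in aged uteri (median 8.88). As for Flt4, 3 of 6 aged libraries exceeded the younger range and the others fell inside it. The log2 difference was 0.90 ± 0.37 against 8 weeks (adjusted p = 0.0956, 95% interval 0.13 to 1.67) and 0.82 ± 0.37 against 5 weeks (adjusted p = 0.114, 0.05 to 1.58). Of its exon bases 1.59% lie in exons of the antisense gene Prox1os, whose reads these strandless libraries cannot separate.

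The surface receptor and the chemokine passed against 1 younger age each. Lyve1, a hyaluronan receptor (chromosome 7, 110850607 to 110863239, minus strand), ran from 27.8 to 81.6 CPM at 5 weeks (median 66.7), from 14.9 to 66.8 CPM at 8 weeks (median 38.5) and from 37.5 to 169 CPM in aged uteri (median 83.6). The 5-week and aged ranges overlapped more than the 8-week and aged ranges did. Lyve1 was 2.28-fold higher in aged than in 8-week uteri (log2 fold change 1.19 ± 0.37, adjusted p = 0.0320), and its difference from 5-week uteri was 0.68 ± 0.37 (adjusted p = 0.186). Ccl21a, a chemokine that draws dendritic cells and T cells carrying CCR7 (chromosome 4, 42772860 to 42773993, minus strand), had a log2 fold change of 2.86 ± 0.57 against 5 weeks (adjusted p = 0.00183) and a log2 difference of 1.40 ± 0.57 against 8 weeks (adjusted p = 0.0974).

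Ccl21a depended on the set more than any other member. In the later set it ran from 70.3 to 266 CPM at 5 weeks, 90.0 to 517 CPM at 8 weeks and 284 to 549 CPM in aged uteri. In the earlier set both 5-week libraries were near the detection limit, at 0.692 and 2.64 CPM (10 and 34 reads), both 8-week libraries were at 36.5 and 13.7 CPM, and both aged libraries at 115 and 183 CPM. Over both sets, 1 of 6 aged libraries lay above all 14 younger ones. Over all ages the later set was 11.2-fold higher than the earlier (log2 fold change 3.48 ± 0.50, adjusted p = 1.3e-05). Near-identical copies of Ccl21a exist in the mouse genome and none of those searched for is listed, so how reads shared between copies were counted limits its level. Flt4 was the other member with a set difference, lower in the later set by 1.20 ± 0.35 on the log2 scale (adjusted p = 0.00682), while Prox1 (-0.76 ± 0.32, adjusted p = 0.0502) and the other 5 did not pass. The Flt4 value averages over ages, and its gap was widest in aged uteri. Mean Flt4 in the earlier and later set was 94.9 and 20.4 CPM in aged uteri, 15.9 and 8.86 CPM at 8 weeks, and 10.8 and 8.73 CPM at 5 weeks.

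Together, 6 of 8 members passed as higher in aged than in 8-week uteri (all except Ccl21a and Prox1), where 1105 of 12791 genes (8.64%) were higher and 1091 (8.53%) lower. Against 5-week uteri 6 of 8 passed as higher (all except Lyve1 and Prox1), where 1622 genes (12.7%) were higher and 1203 (9.41%) lower (1518 and 1702 with TMM scaling). No member was lower in either. The median log2 fold change of the 8 members was 1.29 against 8 weeks and 1.30 against 5 weeks, and over all genes it was 0.05 and 0.09. Both comparisons use the same aged libraries and are not independent. Between 8-week and 5-week uteri no member passed, and neither did any other gene in either direction (0% higher and 0% lower). Limma gave 139 genes, 1 of them a member, an unadjusted p under 0.05 there, and with voom weights on the reads the count of genes passing was also 0. That member was Ccl21a, with a difference of 1.46 ± 0.55 on the log2 scale (adjusted p = 1.00, limma). All ages share 1 estimate of the spread in this fit. The 139 genes are a smaller share of the 12791 than the 0.05 that an unadjusted threshold gives without any difference. The count of 0 therefore does not show that 5-week and 8-week uteri are alike.

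**Figure D2:**
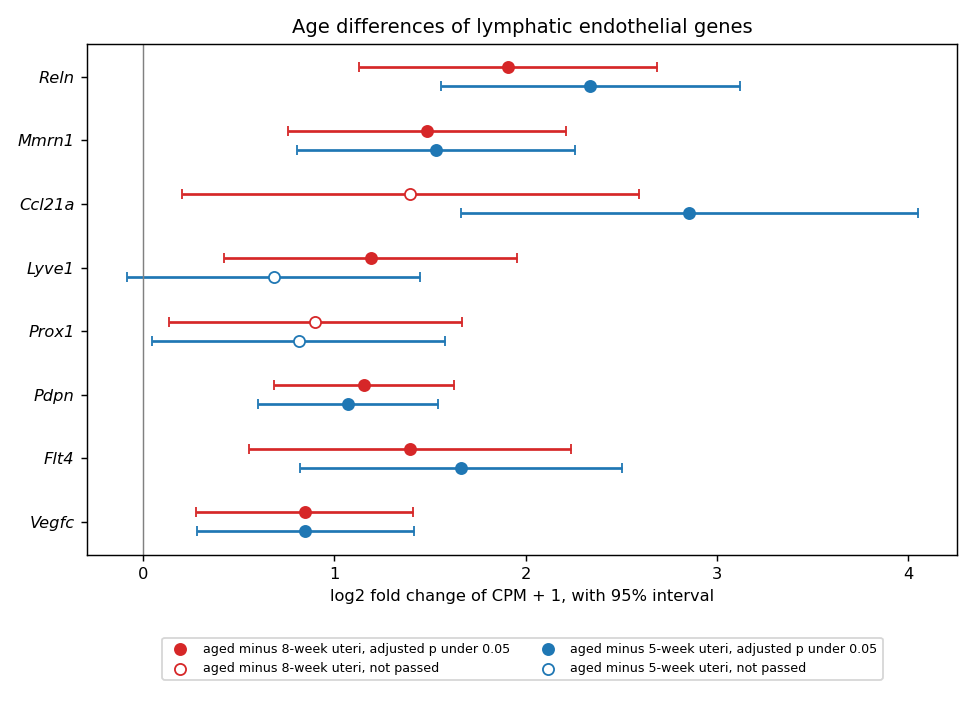
Log2 fold changes of CPM + 1 of each member between aged and 8-week (red) and aged and 5-week uteri (blue), with 95% intervals, filled where the adjusted p was under 0.05. All estimates lie above 0, and the interval of Lyve1 against 5 weeks is the one that includes 0.

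The differences were larger in the earlier than in the later set for all 8 members. Over all genes, too, more passed against 8 weeks in the earlier set alone (3613) than in the later set alone (183). The share of all genes with the larger difference in the earlier set was not counted. The pattern is therefore not shown to be particular to the members. Against 8 weeks, Reln differed by 1.40 ± 0.39 in the later set (4 aged and 5 8-week libraries) and 2.98 ± 0.59 in the earlier set (2 and 2). Mmrn1 differed by 0.78 ± 0.32 and 3.02 ± 0.47, Flt4 by 0.87 ± 0.43 and 2.52 ± 0.64, and Vegfc by 0.41 ± 0.29 and 1.81 ± 0.43 in the later and earlier set. With the later set alone no member passed against 8 weeks (lowest adjusted p 0.0831, Reln), where 0.399% of all genes were higher. Reln (adjusted p = 0.0172) and Pdpn (adjusted p = 0.0380) passed there against 5 weeks, where 1.88% of all genes were higher. With the earlier set alone all 8 passed against 8 weeks (15% of all genes were higher) and 7 against 5 weeks (11.9%). In the test of the difference between sets, no member passed for aged minus 8-week (adjusted p 0.108 to 0.461, with 3 of all genes passing, 0.0235%), although 1855 genes, 7 of them members, had an unadjusted p under 0.05 in limma. None passed for aged minus 5-week either, where Ccl21a came nearest (adjusted p = 0.0957) and no gene of the table passed (0%), although 1079 genes, 5 of them members, had an unadjusted p under 0.05.

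Libraries were also counted, although full separation is reached more easily with the fewer libraries of the earlier set. The counts of the sets therefore cannot be compared with each other. In the earlier set both aged libraries lay above all 4 younger ones for 7 of 8 members, the exception being Lyve1, but 30.8% of all genes did so in that small set. In the later set all 4 aged libraries lay above all 10 younger ones for Reln alone among the members, against 1.2% of all genes. Without aged replicate 1, aged replicate 2 or 8w replicate 2 (all of the earlier set), Reln, Mmrn1 and Pdpn were the 3 members still passing against 8 weeks, and in each of the 20 fits with 1 library left out these 3 passed. Flt4 also missed without aged replicate 7 (adjusted p = 0.0558). Lyve1 missed in 7 and Vegfc in 8 of those 20 fits (adjusted p up to 0.0904 and 0.104). Against 5 weeks Vegfc missed in 7 of the 20 (adjusted p up to 0.0851), and without aged replicate 5, the lowest aged library for Reln, Prox1 passed in both comparisons. Without 5w replicate 3 and 8w replicate 3, whose age is doubtful, the same 6 members passed against 8 weeks. With columns assigned by file instead, Reln, Mmrn1, Pdpn and Vegfc passed against 8 weeks, and Flt4 missed against 5 weeks (adjusted p = 0.0688). With no set term Ccl21a (adjusted p = 0.107) and Vegfc (adjusted p = 0.0550) missed against 5 weeks. With voom weights on the reads, chosen after seeing the data, Reln, Mmrn1, Pdpn and Flt4 passed against 8 weeks.

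**Figure D3:**
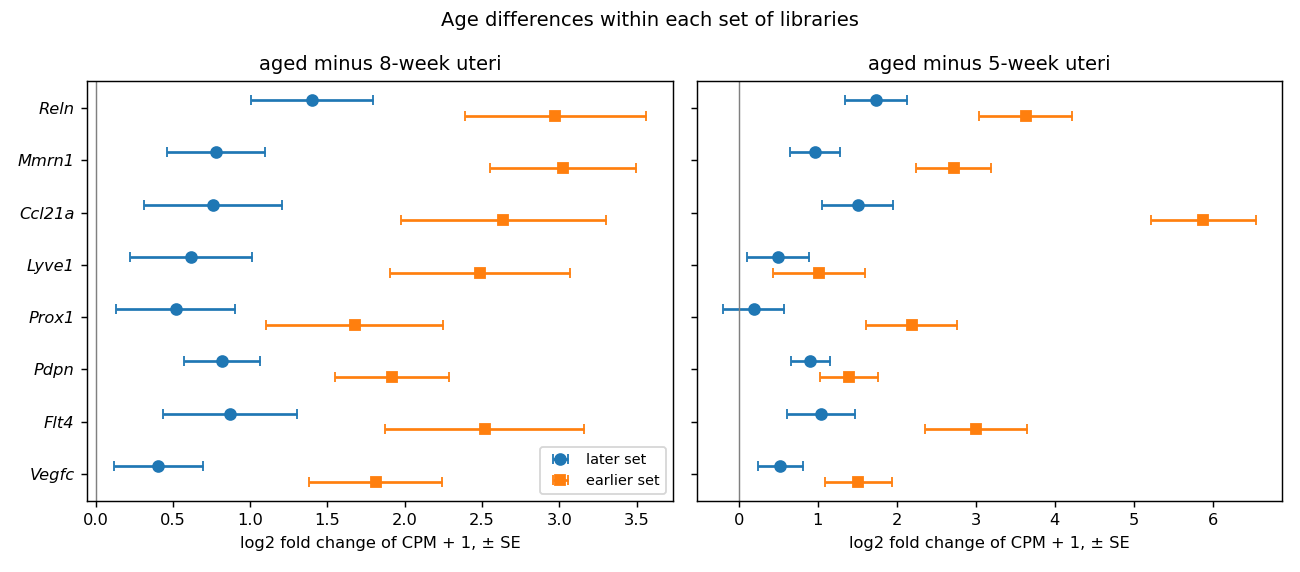
Log2 fold changes of CPM + 1 (± SE) of each member within the later (circles) and the earlier set (squares), aged minus 8-week on the left and aged minus 5-week on the right. Every member has its larger difference in the earlier set (share of all genes not counted). On the left Reln lies at 1.40 in the later and 2.98 in the earlier set and Vegfc at 0.41 and 1.81.

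Compared per kilobase of exon, the members kept a similar order at each age. Ccl21a was the most abundant (351 ± 175 CPM per kb in aged uteri, SD, n = 6), followed there by Pdpn (33.4 ± 7.96), Lyve1 (30.6 ± 15.2), Mmrn1 (16.1 ± 9.90), Flt4 (5.50 ± 5.20), Vegfc (3.85 ± 1.26), Prox1 (1.30 ± 1.16) and Reln (1.26 ± 0.931). Ranges of neighbours in this order overlapped except between Ccl21a and Pdpn. In the earlier set at 5 weeks, however, Ccl21a averaged 1.91 CPM per kb (n = 2), below Lyve1 (18.7), Pdpn (15.1) and Mmrn1 (3.74). At 5 weeks Lyve1 ranked above Pdpn, and at 5 and 8 weeks Vegfc ranked above Flt4. Reln, with 23738 exon bases, had the lowest mean per kb at every age (0.182 ± 0.0889 at 5 weeks and 0.255 ± 0.0940 at 8 weeks, n = 7 each), although among aged libraries of the later set Prox1 was lower (0.692, against 0.859 for Reln, n = 4).

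Blood vessels were examined next, to ask whether the members differed more than endothelial genes in general. Of 18 genes of blood and general endothelium, 1 passed as higher against 8 weeks, the tight junction gene Cldn5 (1.62 ± 0.32, adjusted p = 0.00218), which lymphatic endothelium also makes, with a list median of 0.39. Against 5 weeks 3 of the 18 passed as higher. The list summed to 796 to 1137 CPM in aged libraries, against 431 to 1036 CPM in 8-week libraries. The endothelial factor Sox17 differed by 1.02 ± 0.39 (adjusted p = 0.0730). Taken relative to the mean log2 level of these 18 genes in the same library, Reln (1.46 ± 0.35, adjusted p = 0.00907) and Mmrn1 (1.04 ± 0.35, adjusted p = 0.0433) passed as higher against 8 weeks, where 1.49% of all genes did. Pdpn (0.71 ± 0.29, adjusted p = 0.0906) and Flt4 (0.95 ± 0.40, adjusted p = 0.0914) came near. Against 5 weeks, Reln (1.79 ± 0.35), Mmrn1 (0.98 ± 0.35), Ccl21a (2.30 ± 0.56) and Flt4 (1.11 ± 0.40) passed, where 2.06% of all genes did. Relative to Pecam1 and Cdh5 alone the differences were larger, but Mmrn1 did not pass against 8 weeks (1.26, adjusted p = 0.129) or 5 weeks (1.34, adjusted p = 0.0755), nor Flt4 against 5 weeks (1.47, adjusted p = 0.0634). With 1 library left out at a time, Mmrn1 missed in 9 of 20 fits in each comparison and Flt4 in 9 against 5 weeks, while Reln passed in all 20.

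Other genes of lymphatic biology were higher, lower or did not pass, depending on the gene. Of 9 listed transcription factors of lymphatic development, Tbx1, which acts upstream of VEGFR3, was higher against 8 weeks (1.12 ± 0.30, adjusted p = 0.0146) and the other 8, Sox18 and Nr2f2 among them, did not pass, with a list median of 0.40. The nearest of those, the flow-responsive factor Klf2, differed by 0.83 ± 0.32 (adjusted p = 0.0771). Of 9 genes of VEGF-C processing and reception none was higher and Adamts14, a procollagen protease related to the activator of VEGF-C, was lower (-1.33 ± 0.35, adjusted p = 0.0146), with a list median of 0.13. The VEGF-C co-receptor Nrp2 differed by 0.80 ± 0.28 (adjusted p = 0.0531) and the VEGF-C cofactor Ccbe1 by 1.03 ± 0.41 (adjusted p = 0.0873). None of 6 angiopoietin and ephrin genes passed, with a median of 0.40. Of 5 adrenomedullin genes, the receptor partners Ramp3 (-1.75 ± 0.48, adjusted p = 0.0164) and Ramp2 (-0.96 ± 0.27, adjusted p = 0.0190) were lower, although 33.4% of the Ramp2 exon bases are shared with Vps25. The adrenomedullin decoy receptor Ackr3 differed by -0.91 ± 0.32 (adjusted p = 0.0544), and the list median was -0.91. Of 9 surface and adhesion genes, Itga9, an integrin of lymphatic valves (1.02 ± 0.31, adjusted p = 0.0270), and the scavenger receptor Stab1, shared with macrophages (0.81 ± 0.26, adjusted p = 0.0379), were higher, with a list median of 0.58. The fatty acid receptor Cd36 differed by 1.38 ± 0.56 (adjusted p = 0.0919). Against 5 weeks, 2 of the 9 transcription factors and 1 of the 9 VEGF-C genes were higher. In that comparison 2 VEGF-C genes and 1 adrenomedullin gene were lower.

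Genes that handle chemokines and sphingosine phosphate went both ways. Ackr2, a receptor by which lymphatic endothelium removes inflammatory chemokines, averaged 5.96 ± 3.79 CPM in aged uteri (SD, n = 6), against 1.70 ± 0.735 CPM at 8 weeks (n = 7), a log2 fold change of 1.25 ± 0.24 (SE, adjusted p = 0.00170). Ackr4, which removes CCL21 and CCL19, averaged 3.11 ± 1.22 CPM in aged and 14.0 ± 6.11 CPM in 8-week uteri (-1.81 ± 0.32, adjusted p = 0.00111). The sphingosine phosphate exporter Spns2 was higher (1.12 ± 0.36, adjusted p = 0.0385), and the other 2 of these 5 genes did not pass (list median 0.15). Among the 3 partners of reelin, its receptor Lrp8 was lower, at 1.55 ± 1.55 CPM in aged and 19.2 ± 27.3 CPM in 8-week uteri (-2.09 ± 0.39, adjusted p = 0.00143). The ranges of Lrp8 overlapped, at 0.5401 to 4.502 CPM in aged and 1.499 to 63.42 CPM in 8-week uteri. With an SD above the mean at 8 weeks, the gap in means does not describe every library. How many 8-week libraries carried that mean was not counted. The reelin adaptor Dab1 was higher (1.17 ± 0.39, adjusted p = 0.0462), and the receptor Vldlr did not pass (0.36 ± 0.28, adjusted p = 0.400).

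**Figure D4:**
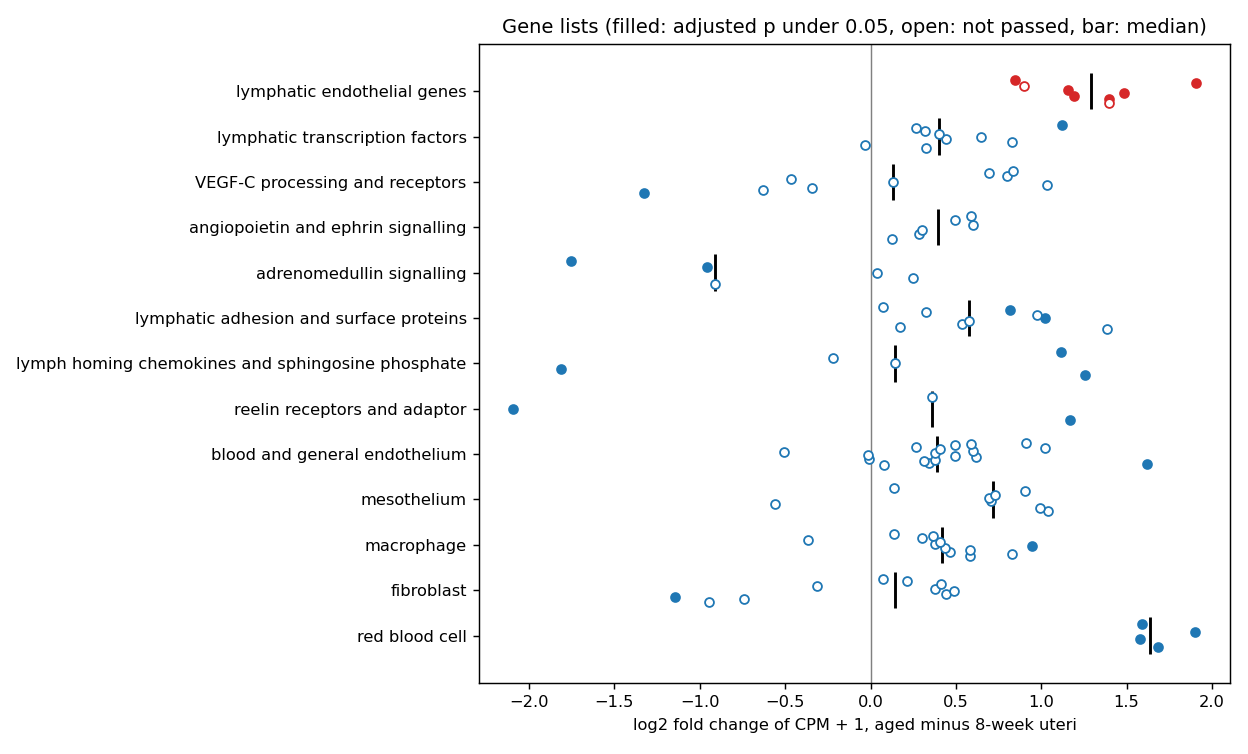
Log2 fold change of CPM + 1 of each listed gene, aged minus 8-week uteri, in 13 gene lists (filled where the adjusted p was under 0.05, bar at the list median). The lymphatic endothelial genes (red) have a median of 1.29, against 0.39 in blood and general endothelium and 0.72 in mesothelium.

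Markers of other cell types were followed in the same libraries. Of 12 listed macrophage genes Csf1r passed as higher (0.95 ± 0.32, adjusted p = 0.0453), with a list median of 0.42 and sums of 556 to 1793 CPM in aged against 276 to 2006 CPM in 8-week libraries. Of 10 fibroblast genes Col3a1 was lower (-1.15 ± 0.30, adjusted p = 0.0142), with a median of 0.14. Against 5 weeks 2 macrophage genes were higher and 3 fibroblast genes lower. Of 8 mesothelium genes none passed, with a median of 0.72 and sums of 307 to 2322 CPM in aged against 305 to 2297 CPM in 8-week libraries. Krt19, also in the epithelium list, was the most abundant, at a mean of 607 CPM in aged and 938 CPM in 8-week uteri. The other listed mesothelium genes all averaged higher in aged uteri, with a wide spread, such as Upk3b (188 ± 165 against 80.1 ± 47.2 CPM, SD). All 4 listed haemoglobin genes were higher (1.58 to 1.90, adjusted p 0.00525 to 0.0143), although near-identical copies among them make single values uncertain, with sums of 51.8 to 281 CPM in aged against 16.1 to 63.1 CPM in 8-week libraries, and the part of residual blood in the members' difference was not tested. Against 5 weeks none of the 4 haemoglobin genes passed (list median 0.95).

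Libraries of 1 age and set also varied among themselves, and the members did so together. Levels of log2(CPM + 1) were centred on the mean of each age group and set, which leaves 14 free deviations over the 20 libraries. Over the 28 pairs of members the median Pearson r was 0.58, from 0.083 (Lyve1 and Vegfc) to 0.953 (Reln and Prox1), and 14 pairs passed (permutation p, 100000 resamples within age and set, adjusted over the 28 pairs). The 3 closest pairs were those among Reln, Prox1 and Flt4, with r = 0.875 for Reln and Flt4. Reln and Prox1 had r = 0.953 and Spearman rho = 0.940 (permutation p = 1e-05, the smallest the resamples can give, adjusted 9.33e-05), and r = 0.931 without the 2 libraries farthest out and 0.944 within the later set (14 libraries). Prox1 and Flt4 had r = 0.926 (rho = 0.923, adjusted permutation p = 9.33e-05, 0.887 without the 2 farthest libraries, 0.944 within the later set). Among the other pairs the highest r was that of Ccl21a and Vegfc (r = 0.794, rho = 0.765, permutation p = 0.0004, adjusted 0.0028, 0.726 without the 2 farthest libraries, 0.789 within the later set).

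The members also followed the mesothelium list from library to library. Of 32 relations between a member and the mean of the blood endothelium, macrophage, fibroblast or mesothelium list, 7 passed after adjustment, all with mesothelium. The strongest was Mmrn1 with r = 0.863 (rho = 0.857, permutation p = 0.00014, adjusted 0.00448, 0.860 without 5w replicate 2 and 8w replicate 6, 0.893 within the later set). For Prox1 it was 0.756 (rho = 0.765, adjusted permutation p = 0.00971) and for Reln 0.672 (rho = 0.683, adjusted permutation p = 0.0440). Lyve1 (r = 0.620, rho = 0.591, adjusted permutation p = 0.0624) did not pass. Nor did Pdpn with the macrophage list (r = 0.626, rho = 0.501, adjusted permutation p = 0.0910). No member passed with blood endothelium (r from -0.337 to 0.125). With the mean of the mesothelium list added to the fit as a covariate, an alternative chosen after seeing the data, 3 of 8 members passed against 8 weeks, where 4.09% of all genes were higher: Reln (1.47, adjusted p = 0.00314), Mmrn1 (1.03, adjusted p = 0.00645) and Pdpn (0.92, adjusted p = 0.00486). Flt4 (0.93, adjusted p = 0.0598), Lyve1 (0.85, adjusted p = 0.111) and Vegfc (0.58, adjusted p = 0.130) then missed, and 5 of 8 passed against 5 weeks, where 6.93% of all genes were higher. The covariate may itself differ with age, and its genes include Krt19 of the epithelium list, so that fit cannot separate mesothelium from age. The part of mesothelium in the members' differences was not tested.

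**Figure D5:**
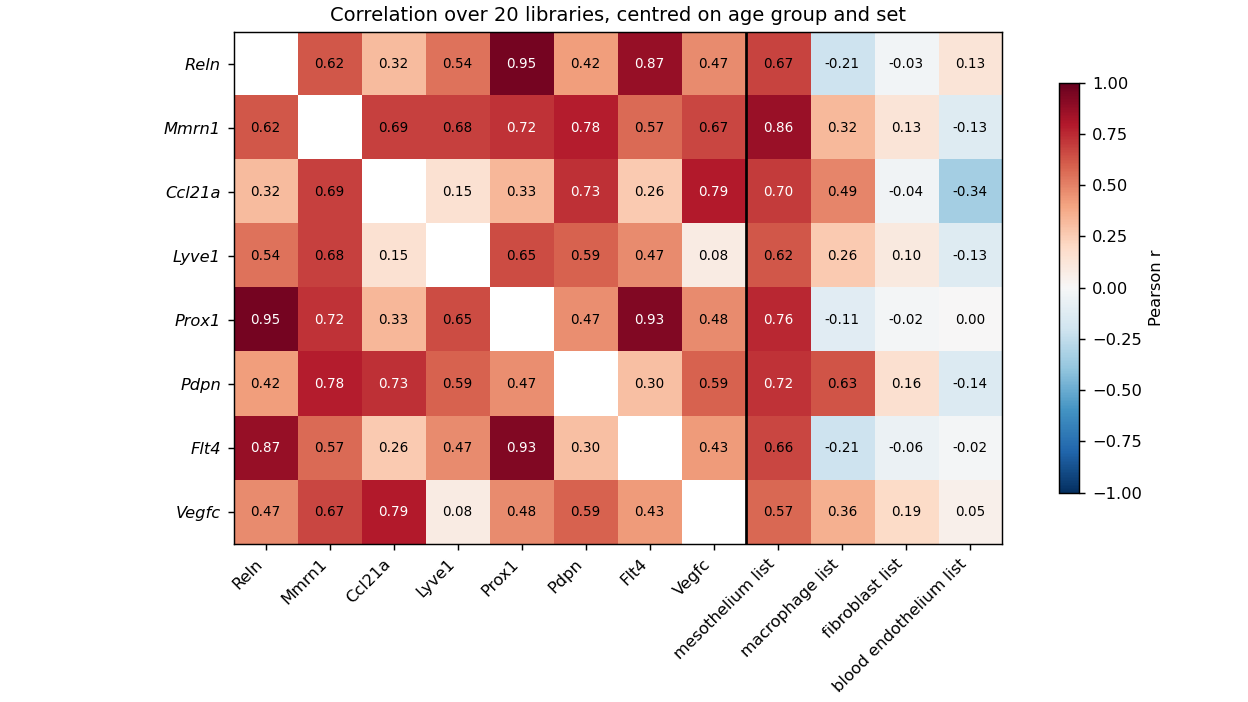
Pearson r over 20 libraries between members (left of the line) and between each member and the mean of 4 marker lists (right of the line), after centring on age group and set. Reln, Prox1 and Flt4 correlate at 0.87 to 0.95, and r with the mesothelium list runs from 0.57 to 0.86 (Lyve1, at 0.62, did not pass) while r with the blood endothelium list does not exceed 0.13.

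Over the whole table, the genes whose levels were most like the mean of the 8 members (each scaled to the same spread, centred within set, 20 libraries) were Il7 (Pearson r = 0.968), Xpnpep2 (0.949), Podn (0.944), Pkhd1l1 (0.943) and Gabra3 (0.940). These values include the age differences and are a description. Of the members themselves, Mmrn1 lay closest to that mean, of which it is a part (r = 0.975), and Lyve1 farthest (0.757). The closest genes to single members were Bmpr1b (0.960) and Slc31a2 (0.956) for Reln, Gabra3 (0.958) and Crebl2 (0.943) for Mmrn1, and Shank2 (0.966) and Cul9 (0.956) for Flt4. For Prox1 they were Mgat3 (0.930) and Espn (0.919), for Pdpn Hoxc6 (0.904) and Gabra3 (0.896), for Vegfc Cib2 (0.949) and Olfml1 (0.939), for Ccl21a Pcnx2 (0.903) and H2-K1 (0.899), and for Lyve1 Hspa12a (0.834) and Wnt2b (0.824).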

How the data were processed

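RNA was sequenced from whole uteri, and values in CPM were deposited by the authors, which the submitters' processing notes tie to fastp, STAR, featureCounts, edgeR and the build GRCm38, with no versions or roles. Per the labels, libraries were made with a kit that does not keep strand and read as single 60 bp or paired 150 bp reads, with no statement of which library had which. Columns sum to 1000000 over 12791 genes, and every value is a whole multiple of 1 read (tolerance 1e-06), which gave the read totals. Of 21 files 1 held no numbers, and aged replicate 3 has no column and was not analysed here.

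Levels were tested as log2(CPM + 1) in limma 3.58.1 (R 4.3.3) with trended empirical Bayes, age group and set as terms, Benjamini-Hochberg adjustment over all 12791 genes and a threshold of 0.05. Tested on simulated data, the fit recovered large changes and missed most small ones. That simulation gave every gene and age the same spread between libraries and the sets no difference, unlike these data. It therefore does not give the share of changes missed here. Labels do not say whether libraries of 1 age come from separate animals, so p-values measure the spread between libraries. The pseudocount of 1 understates fold changes of low genes. Coordinates are from GENCODE mouse release 21 on GRCm38. Members and the 16 other gene lists were chosen with earlier results of these data known. Named genes are all members, the listed genes that passed against 8 weeks and some of those next in adjusted p (up to 4 a list). The genes closest in pattern are named as well. Proliferation and haemoglobin genes, which passed as whole lists, are given by count. Some other genes are named as examples of a list or as the reference of a fit. The pseudocount, scaling, set term, replicate block, column assignment, sets and single libraries were varied. Motif matches were exact. Correlations used Python 3.11.15 with numpy 2.4.6, figures matplotlib 3.10.9.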

Additional observations from a re-analysis of the deposited data

Results flagged for a closer look

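Within each age group the highest and the lowest library of every member were compared with the next library, relative to the group's range. Dixon's criterion at 95% was used on CPM in 24 groups. For normally distributed values chance meets it in about 1 of 20 groups. Each group here mixes both sets, so that rate may not hold. 3 libraries stood apart. Pdpn was at 88.2 CPM in aged replicate 2, with the next aged library at 59.4 CPM, and without it the log2 fold change was 1.02 against 8 weeks (adjusted p = 0.00649, limma). Prox1 was at 8.36 CPM in 8w replicate 1, with the next 8-week library at 4.59 CPM, and without it the log2 difference of aged from 8-week uteri was 1.00 (adjusted p = 0.101). Vegfc was at 9.21 CPM in 5w replicate 3, with the next 5-week library at 4.80 CPM. That column lies in a file attached to an aged sample, and without it the log2 fold change of Vegfc against 5 weeks was 0.99 (adjusted p = 0.0115).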

How the results depend on the processing

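Reln passed in all 35 alternatives against 5 weeks and in 34 against 8 weeks, Mmrn1 and Pdpn in at least 34 in each comparison, the exceptions being fits on the later set alone. No member reversed between aged and younger uteri in level. The number of genes passing between aged and 8-week uteri was 2196, and 969 with no set term, 565 with columns assigned by file, 183 in the later set alone, 3613 in the earlier set alone and 1144 with the mesothelium mean as a covariate. With 1 library left out it ran from 1309 (without aged replicate 1) to 2617, with 1454 without 8w replicate 1 and 1358 without 8w replicate 2. Against 5 weeks it was 2825, and 1380 with no set term, 523 in the later set alone and 1661 with the mesothelium covariate (1982 to 3294 with 1 library left out). Members passing against 8 weeks were 3 with no set term, 0 in the later set alone, 3 with the mesothelium covariate and 3 to 7 with 1 library left out, and against 5 weeks 2 in the later set alone and 5 to 7 with 1 library left out. Relative to blood endothelium the count against 8 weeks was 2, and 1 with Pecam1 and Cdh5 alone, 1 with no set term, 0 by file, 0 in the later set alone, 1 without 5w replicate 3 and 8w replicate 3 together and 1 to 3 with 1 library left out. Against 5 weeks it was 4, and 2 with Pecam1 and Cdh5 alone, 1 with no set term, 2 by file, 1 in the later set alone and 2 to 4 with 1 library left out. The causes were not tested.

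Same-numbered libraries deviated together with r from -0.505 to 0.279 (19 pairs, median 0.104). Differently numbered ones ran from -0.514 to 0.794 (58 pairs, median -0.086). These values do not settle whether the numbers pair the libraries. A replicate block gave 4 members against 8 weeks and 6 against 5 weeks. Of all 12791 genes, 1637 and 2413 passed there in either direction. Relative to blood endothelium the block gave 1 and 2 members, and the count over all genes is not given here.

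Small differences changed sign. Between 8 and 5 weeks these were Vegfc (-0.012 and -0.0035 with pseudocounts of 0.1 and 0.5, -0.034 with TMM, -0.033 with median centring, -0.053 with quantile normalization, -0.30 in the earlier set, -0.0011 with the mesothelium covariate and -0.16 to 0.16 with 1 library left out), Mmrn1 (-0.0040 with TMM, -0.30 in the earlier set, -0.14 to 0.23), Prox1 (0.030 by file, 0.51 in the earlier set, -0.28 to 0.10) and Pdpn (0.089 in the later set, -0.22 to 0.076). Relative to blood endothelium against 5 weeks they were Lyve1 (-0.22 by file, -0.019 in the earlier set, -0.075 without 5w replicate 3 and 8w replicate 3, -0.093 to 0.39 with 1 library left out) and Prox1 (-0.13 in the later set, -0.010 without 5w replicate 1, with up to 0.48 when another library was left out). Voom weights and the mesothelium covariate were chosen after seeing the data. Count models in edgeR and DESeq2 were planned and not run, since the deposited unit is CPM. A filter at a mean of 1 CPM removed no gene. Depth limits Ccl21a most, at 10 reads in 1 library.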

Other observations

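The remaining gene lists describe the tissue in which the members were measured. All 8 proliferation genes were lower in aged than in 8-week uteri, with a median log2 fold change of -3.09, and summed to 90.4 to 453 CPM in aged against 478 to 2205 CPM in 8-week libraries. Of 13 uterine tissue genes Foxa2, the transcription factor of uterine glands, was higher (1.54 ± 0.40, adjusted p = 0.0122, limma) and the list median was 0.01. Of 9 epithelium genes Cldn4 was higher (1.13 ± 0.33, adjusted p = 0.0262), with a median of -0.17. Of 8 smooth muscle genes none passed, with a median of 0.40, and Lmod1 came nearest (1.34 ± 0.47, adjusted p = 0.0551). Against 5 weeks 2 of the 8 smooth muscle genes passed as higher, and 1 epithelium gene was higher and 1 lower.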
